A study of Mus musculus with 2 samples.

Results

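AMPA receptor auxiliary subunits are membrane proteins that join the pore-forming glutamate receptor subunits and set how many receptors reach the synapse and how quickly they close and desensitise. The RNA of 10 such genes was described here, of 55536 annotated genes in the tables. They are the transmembrane AMPA receptor regulatory proteins (TARPs) Cacng2, Cacng3, Cacng4, Cacng7 and Cacng8, the cornichon homologues Cnih2 and Cnih3, the Shisa proteins Shisa6 and Shisa9, and Gsg1l. The members were taken by gene name from the gene table and from both transcript tables of each library, with no filter on their values. The set was chosen with earlier results of these data known. Total RNA of 2 libraries was sequenced, biological replicates 1 and 2, taken from the hippocampus of female mice of the B6CASTF1/J cross, aged 36 days. B6CASTF1/J is the first-generation hybrid of the inbred strains C57BL/6J and CAST/EiJ. The labels call the tissue a layer of the hippocampus without saying which layer, give 300 ng of RNA per library and name ERCC synthetic RNA as a spike-in. Each library has its own biosample, but both carry the same donor identifier, so the spread given here may be between mice or between pieces of tissue. There was a single group, with no treatment and no mutant, so levels and their spread are given with no test.

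AMPA receptors are tetramers of the subunits encoded by Gria1 to Gria4, and they carry most fast excitatory transmission between hippocampal neurons. TARPs escort these tetramers to the surface and, where they end in a PDZ-binding tail, anchor them to scaffolds such as the one encoded by Dlg4. Cornichons act in export from the endoplasmic reticulum and slow the closing of surface channels, Shisa6 and Shisa9 modify desensitisation, and GSG1L is an auxiliary subunit from a claudin-like family related to the TARPs.

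The gene tables held 32298993 expected counts over annotated genes in replicate 1 and 30010733 in replicate 2. All 5 excitatory neuron markers and all 5 interneuron markers were detected, and none of 3 cerebellar markers reached 1 TPM in both libraries. TPM is a relative abundance that scales counts by transcript length and by the library total. Replicate 2 stood apart in markers of tissue that borders the hippocampus. Markers of the choroid plexus (5 genes, Ttr the highest) summed to 25.1 TPM in replicate 1 and 1265 in replicate 2, and meningeal markers (3 genes, Igf2 the highest) to 45.3 and 92.9 TPM. Most of the difference in the sum of these 3 genes lay in Igf2, at 24.7 and 62.5 TPM, with Dcn at 15.8 and 23.3 and Col1a1 at 4.82 and 7.08 TPM. Dentate granule neuron markers (3 genes, Prox1 the highest) summed to 77.7 and 86.9 TPM, CA3 markers (3 genes, Cpne4 the highest) to 125.7 and 98.4 TPM, and oligodendrocyte markers (4 genes, Mbp the highest) to 1330 and 1007 TPM. Leaving out either library leaves the single value of the other, and both values are given throughout.

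The ends of the coding sequences are shown first, because the tail that binds PDZ domains divides the TARPs. Each line gives the last 30 coding bases and the stop codon of a GENCODE M21 transcript (mm10, from the C57BL/6J reference and not from reads of the hybrid), with the last 12 coding bases in capitals.
Cacng2: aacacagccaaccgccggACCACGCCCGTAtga
Cacng3: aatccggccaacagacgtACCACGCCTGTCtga
Cacng4: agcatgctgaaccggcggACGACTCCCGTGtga
Cacng8: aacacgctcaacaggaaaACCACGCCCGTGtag
Cacng7: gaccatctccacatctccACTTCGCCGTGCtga
Shisa6: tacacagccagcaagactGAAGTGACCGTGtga
Shisa9: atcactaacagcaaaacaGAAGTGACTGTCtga
The ends of Cacng3, Cacng4 and Cacng8 shared 10, 9 and 11 of 12 bases with that of Cacng2, and every difference lay at the third position of a codon. The end of Cacng7 shared 6 of 12 bases, with differences at other positions too. The ends of Shisa6 and Shisa9 shared 10 of 12 bases with each other, and differed only at the third position of a codon. Over their annotated coding sequences the TARPs were most alike in the pair Cacng2 and Cacng3, with 72.3% of 945 aligned bases identical. Cacng7 was the least alike, with 57.1% to 58.4% identity to the other 4. Cnih2 and Cnih3 were 77.1% identical over 480 aligned bases, and Shisa6 and Shisa9 61.3% over 1098. The annotated coding sequences of Shisa6-202 and Shisa9-201 begin at the first base of the transcript, and that of Shisa6-202 is not a whole number of codons, so the Shisa comparison may cover incomplete sequences.

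All 10 members were detected, which means at least 1 TPM in both libraries. By the same rule 12679 of 22028 annotated protein-coding genes were detected. Genes can be compared with each other on the TPM scale. The first quantification gives gene and transcript levels, and the second gives transcript levels that were summed per gene here. Levels, shares and ratios below are from the first quantification unless the second is named. Cnih2 was the most abundant member, followed by Cacng8, and Gsg1l the least abundant. Cnih2 and Cacng8 together outweighed the other 8 members in both libraries, with 43.1% ± 0.392 and 24.4% ± 0.0611 (SD, n = 2) of the summed TPM of all 10.

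Cacng8 encodes TARP γ-8, the TARP best known from the hippocampus. It had 164 TPM in replicate 1 and 151 TPM in replicate 2, a mean of 158 ± 9.50 TPM (SD, n = 2), from 5687 and 4868 counts. Its mean exceeded that of 97.0% of the 12679 detected protein-coding genes. Cacng8 made up 61.6% ± 0.321 (SD, n = 2) of the summed level of the 5 TARP members. With Cacng5, a TARP gene that is not among the members, added to the sum, its share was 60.8% in replicate 1 and 60.3% in replicate 2. In the second quantification Cacng8 made up 57.7% ± 0.605 (SD, n = 2) of the 5 TARP members.

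Cacng7 encodes TARP γ-7, a type II TARP without the tail shared by the type I TARPs Cacng2, Cacng3, Cacng4 and Cacng8. It had 51.9 and 48.7 TPM in the replicates, a mean of 50.3 ± 2.28 TPM (SD, n = 2). Cacng8 was 3.13 ± 0.0471 times as high as Cacng7, and 2.41 ± 0.120 times in the second quantification (SD, n = 2). The SD is between libraries and does not cover the difference between quantifications.

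Cacng2 encodes stargazin, the TARP lost in the stargazer mouse, and Cacng3 its closest relative, TARP γ-3. Cacng3 had 23.7 and 23.8 TPM, the closest match between the libraries of any member on the TPM scale. Cacng2 had 15.01 and 13.39 TPM, a mean of 14.2 ± 1.15 TPM (SD, n = 2). Both Cacng3 libraries lay above both Cacng2 libraries, and Cacng8 was 11.1 ± 0.227 times as high as Cacng2 (SD, n = 2). The ratio of Cacng8 to Cacng2 was 10.4 ± 0.392 in the second quantification (SD, n = 2).

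Cacng4 encodes TARP γ-4, which is grouped with γ-8 among the type I TARPs. Its coding sequence was 67.0% identical to that of Cacng8 and 65.9% to that of Cacng2. It had 10.7 and 9.03 TPM, a mean of 9.87 ± 1.18 TPM (SD, n = 2), the lowest of the 5 TARP members. Cacng8 was 16.0 ± 0.956 times as high, and 17.35 ± 0.290 times in the second quantification (SD, n = 2).

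Cnih2 encodes the cornichon that is found with AMPA receptors in hippocampal pyramidal neurons. It had 292 TPM (8528 counts) in replicate 1 and 265 TPM (7393 counts) in replicate 2, a mean of 279 ± 18.6 TPM (SD, n = 2). It ranked 151 among 22028 annotated protein-coding genes. Cnih3, its close relative, had 21.4 and 23.3 TPM, a mean of 22.3 ± 1.37 TPM (SD, n = 2). The ratio of Cnih2 to Cnih3 was 13.7 in replicate 1 and 11.4 in replicate 2, and 12.1 and 9.28 in the second quantification.

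Shisa6 encodes CKAMP52, which limits desensitisation of synaptic receptors. It had 67.4 TPM (7268 counts) in replicate 1 and 55.2 TPM (5591 counts) in replicate 2, a mean of 61.3 ± 8.63 TPM (SD, n = 2). Shisa9 encodes CKAMP44, which slows recovery from desensitisation and is known from dentate granule neurons. It had 20.8 and 24.2 TPM, a mean of 22.5 ± 2.43 TPM (SD, n = 2). Shisa6 was lower and Shisa9 higher in replicate 2, so their ratio was 3.25 in replicate 1 and 2.28 in replicate 2. In the second quantification the ratio was 2.31 in replicate 1 and 1.62 in replicate 2.

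Gsg1l encodes a subunit that reduces AMPA receptor currents. It had 5.09 TPM (458 counts) in replicate 1 and 5.43 TPM (465 counts) in replicate 2, a mean of 5.26 ± 0.240 TPM (SD, n = 2). Its mean exceeded that of 22.0% of detected protein-coding genes, and Cnih2 was 57.3 and 48.9 times as high in the replicates. In the second quantification Cnih2 was 47.1 and 41.3 times as high as Gsg1l.

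**Figure D1:**
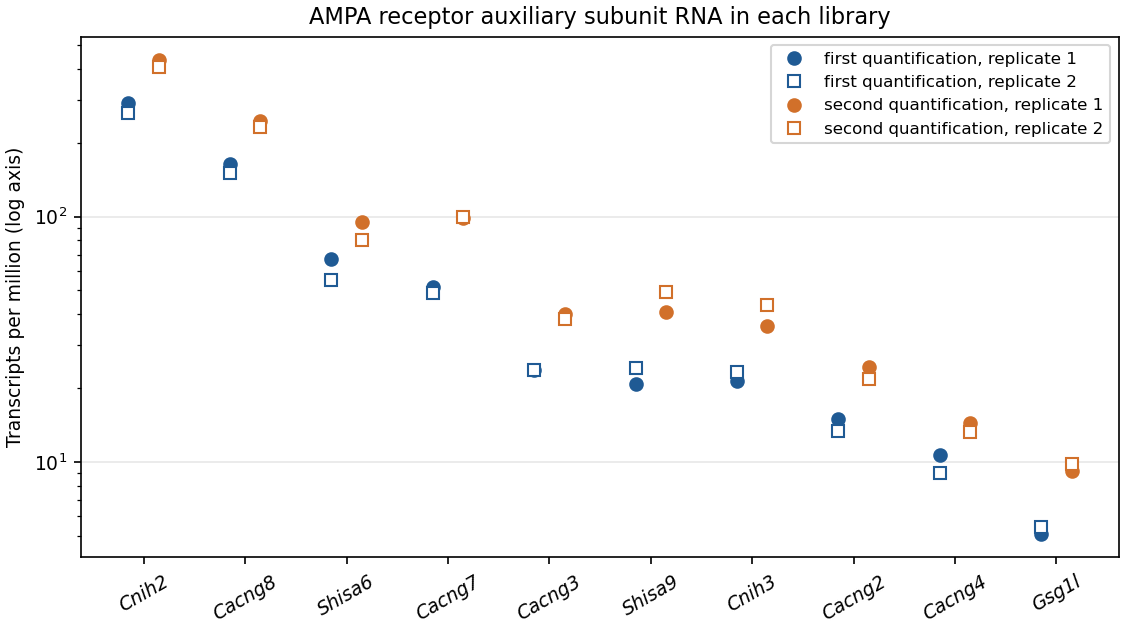
Level of each auxiliary subunit gene in TPM (log axis) in each library, by the first quantification (blue) and the second (orange), with filled circles for replicate 1 and open squares for replicate 2. Cnih2 and Cacng8 lie above all other members in both quantifications, and Gsg1l lies lowest.

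In the first quantification the members stood in the order Cnih2, Cacng8, Shisa6, Cacng7, Cacng3, Shisa9, Cnih3, Cacng2, Cacng4, Gsg1l. Neighbours were counted as separated where both libraries of the higher gene lay above both libraries of the lower gene, which held for 7 of 9 neighbouring pairs. Cacng3 was not separated from Shisa9, nor Shisa9 from Cnih3. The ranks are of gene levels that include non-coding transcripts. In Shisa9 the non-coding Shisa9-204 had 7.85 and 9.73 TPM. The coding Shisa9-201 had 9.99 and 11.79 TPM and the coding Shisa9-202 2.93 and 2.68 TPM. Cacng2, with a single coding transcript, had 15.01 and 13.39 TPM. The second quantification also separated 7 of 9 neighbours, but 5 members held other ranks. There Cacng7, at 98.9 and 99.8 TPM, lay above Shisa6, at 94.7 and 80.1 TPM. Within Cacng7, the coding transcript Cacng7-201 had 63.4 and 58.4 TPM, and Cacng7-202, with a retained intron, 35.4 and 41.4 TPM. Within Shisa6, the coding transcripts Shisa6-202 and Shisa6-201 had 61.0 and 50.2 TPM, and 32.7 and 25.3 TPM. Shisa9 (45.2 ± 6.01 TPM), Cnih3 (39.8 ± 5.65 TPM) and Cacng3 (39.3 ± 1.23 TPM; SD, n = 2 for each) followed, without separation of Cnih3 from either neighbour. The ranks of Cnih2, Cacng8, Cacng2, Cacng4 and Gsg1l were the same in both.

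Every member had a higher TPM in the second quantification than in the first, by 1.40 times for Cacng4 up to 2.01 times for Shisa9. Over detected protein-coding genes the median of this ratio was 1.71, with 1.35 and 2.52 at its 5th and 95th percentiles, and all 10 members lay between those bounds. Protein-coding genes held 43.9% and 42.4% of all TPM in the first quantification. Rescaled to protein-coding genes alone, Cnih2 stood at 645 ± 27.0 TPM in the first and 539 ± 21.5 TPM in the second quantification (SD, n = 2). After rescaling 7 members had the higher mean in the first quantification, while Cacng7 (116 and 127 TPM in the first and second), Shisa9 (52.2 and 58.0 TPM) and Gsg1l (12.19 and 12.22 TPM) had it in the second. Levels are compared within a quantification only.

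Summed over all 10 genes, auxiliary subunit RNA reached 672 TPM in replicate 1 and 619 TPM in replicate 2. The 4 pore-forming subunit genes summed to 639 and 613 TPM. The ratio of the sums was 1.05 and 1.01 in the first quantification, and 1.03 and 1.01 in the second. Cornichons supplied 46.6% ± 0.0198 of the auxiliary sum, TARPs 39.6% ± 0.107, the Shisa genes 13.0% ± 0.212 and Gsg1l 0.817% ± 0.0845 (SD, n = 2 for each). The libraries of Cnih2 overlapped those of Gria1, at 276 ± 10.6 TPM, and of Gria2, at 264 ± 5.71 TPM (SD, n = 2). Gria3 stood at 64.2 ± 1.59 TPM (SD, n = 2), near Shisa6. These are ratios of RNA in whole tissue and say nothing of the subunits in a single receptor.

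**Figure D2:**
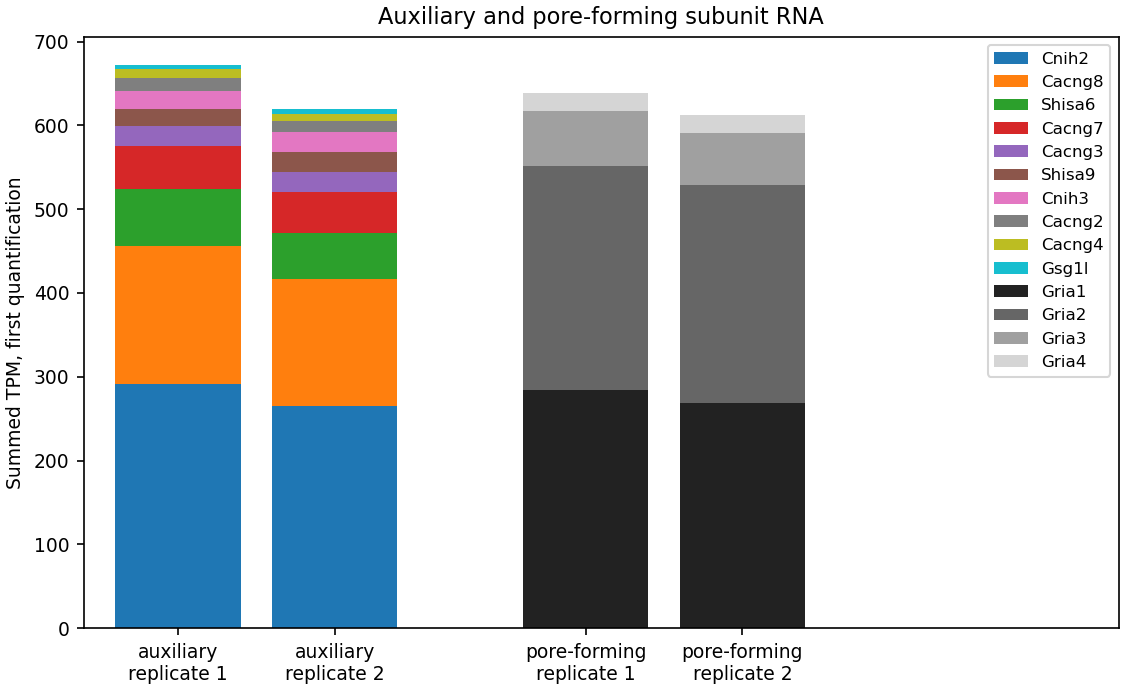
Summed TPM (first quantification) of the 10 auxiliary subunit genes and of the 4 pore-forming subunit genes in each library, stacked by gene. The auxiliary stacks reach 672 and 619 TPM and the pore-forming stacks 639 and 613 TPM, and Cnih2 and Cacng8 fill most of the auxiliary stacks.

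The libraries were compared by the log2 ratio of normalised counts, replicate 2 over replicate 1, after TMM scaling, a method that sets library sizes so that most genes show no difference. With TMM scaling none of the 10 members differed by more than 2-fold, against 0.466% of 12651 genes with a mean of at least 100 counts. In none was the higher library more than 25% above the lower (0.32 on the log2 scale), against 6.24% of those genes. The members' median log2 ratio was -0.09, and that of all compared genes -0.02. Lower values in replicate 2 were found for 7 of 10 members and for 55.5% of all compared genes with this scaling. The counts of 0 members are near the background shares.

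With TMM scaling all 5 TARPs were lower in replicate 2, from -0.02 for Cacng3 to -0.18 for Cacng4 on the log2 scale, while Cacng3 stood at 0.01 with total-count scaling and all 5 lay above 0 with spike-in scaling. Cnih2 had a log2 ratio of -0.13 and Cnih3 of 0.09. Shisa6 had the lowest ratio of the members, at -0.30, with a 95% counting interval from -0.35 to -0.25, and 6.97% of compared genes had a ratio of larger size. In the second quantification its ratio was -0.33, past the 25% mark. Shisa9 had the highest, at 0.20, with a counting interval from 0.10 to 0.30. The counting intervals of 6 members did not include 0, and those of Cacng3, Cacng7, Cnih3 and Gsg1l did. Over all compared genes, 29.7% had an interval without 0, and the width of an interval depends on the count. The intervals are exact binomial intervals for counting error only. They hold no error between animals, dissections or library preparations.

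Other values moved between the same libraries. The median log2 ratio was -0.32 for 3 CA3 markers and -0.36 for 4 oligodendrocyte markers, both near the value of Shisa6. It was 0.16 for 3 dentate granule neuron markers, near the value of Shisa9. The median was 0.01 for 3 CA1 markers (Wfs1 at -0.39, Fibcd1 and Mpped1 at 0.01 each). For 5 excitatory neuron markers it was -0.10, with Neurod6 at -0.38 and the others between -0.12 and -0.08. Any part of these marker differences in the ratios of Shisa6 and Shisa9 was not tested. In bulk tissue, fewer cells of a type and less RNA per cell cannot be told apart. The scaling also moved the ratios: spike-in scaling shifted the compared genes by 0.26, so that 9 of 10 members were higher in replicate 2 and only Shisa6, at -0.04, was lower. Of all compared genes, 96.7% were higher in replicate 2 with that scaling. With it Cnih3 (0.35), Gsg1l (0.36) and Shisa9 (0.46) passed the 25% mark, 3 of 10 members, against 28.2% of compared genes. A scaling shifts all genes alike, so the difference between Shisa6 and Shisa9 was the same under both.

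**Figure D3:**
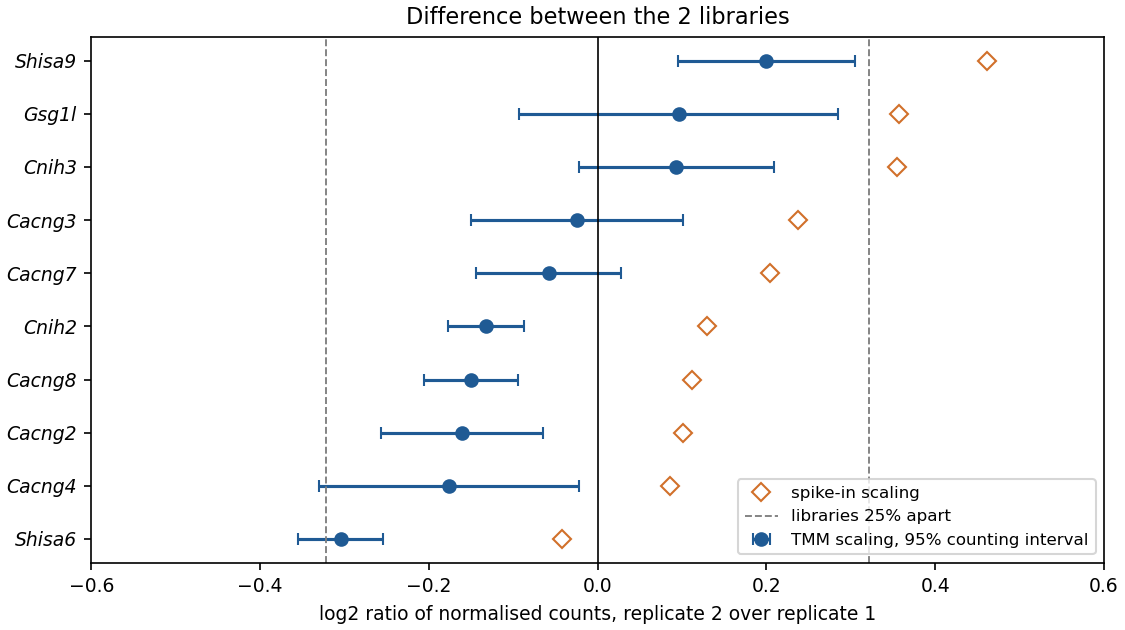
Log2 ratio of normalised counts, replicate 2 over replicate 1, for each member after TMM scaling (filled circles, with 95% counting intervals) and after spike-in scaling (open diamonds), with dashed lines where the libraries are 25% apart. All circles lie inside the lines, Shisa6 lowest at -0.30 and Shisa9 highest at 0.20, and the diamonds lie to the right by about the same distance for every gene.

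Cacng7, Cacng8 and Cacng4 lie in clusters with relatives, and levels differed widely within each cluster. Cacng7 (chr7:3332955-3368221), Cacng8 (chr7:3390683-3415648) and Cacng6 (chr7:3424195-3435667) follow each other on the plus strand of mm10. Their means were 50.3, 158 and 0.545 TPM. Cacng6, a relative that is not an AMPA receptor subunit, had 24 and 17 counts. On the minus strand of chromosome 11, Cacng4 (chr11:107732357-107794557) lies between Cacng1 (chr11:107703218-107716522), a subunit of the skeletal muscle calcium channel, and Cacng5 (chr11:107874605-107915055), which encodes the type II TARP γ-5. Cacng1 had 0 counts in both libraries, which allows up to 3 counts in each, or 0.0929 CPM (counts scaled to the library total) in replicate 1 and 0.09996 CPM in replicate 2. Cacng5 had 4.80 and 4.62 TPM, and Cacng7 was 10.7 ± 0.195 times as high (SD, n = 2). In the second quantification Cacng7 was 13.1 ± 0.164 times as high as Cacng5 (SD, n = 2). The other members lie apart: Cacng2 at chr15:77991748-78120028, Cacng3 at chr7:122670492-122769393, Gsg1l at chr7:125878420-126082411, Cnih2 at chr19:5092868-5098521, Cnih3 at chr1:181352628-181460641, Shisa6 at chr11:66211725-66525964 and Shisa9 at chr16:11984113-12270902.

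In the first quantification the gene counts of all 10 members were whole numbers in both libraries (within 0.005), as they would be with no read divided between a member and another gene. In the second quantification the summed estimated counts of 5 members were not whole, among them those of the single-transcript genes Cacng2 (2135.47 and 1797.66) and Gsg1l (560.5 and 565.4). Exons of Cacng2 share 323 bases with the opposite-strand gene A730060N03Rik, which had 79 and 81 counts. Exons of Cnih2 share 14 bases with Yif1a on the other strand, and exons of Cacng8 share 91 bases with the small RNA gene Gm23450, which had 0 counts in both libraries. Whether counting used strand is not given in the sources used here.

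The annotation lists 27 transcripts for the 10 genes. Cacng2 and Gsg1l have a single transcript each, and of the other 8 genes 7 were led by the same transcript in both quantifications. Over all 11947 detected genes with at least 2 transcripts that share was 75.1%. Transcript shares are percentages of the gene's TPM, and a short transcript with few counts can hold a large share.

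Cacng8 was the exception. Its transcript Cacng8-201 held 54.0% and 55.8% in the replicates of the first quantification, but 0.781% and 2.15% in the second. Cacng8-202 held 42.5% and 39.0% in the first and 94.7% and 91.3% in the second. Both transcripts carry the same coding sequence of 1269 bases. The 1380 bases of Cacng8-201 are contained whole in the 1897 bases of Cacng8-202, which has more sequence before the coding part and 43 bases after the stop codon. No base is found in Cacng8-201 alone. The libraries lay close to each other in each quantification, and the quantifications did not. The remaining transcript, Cacng8-203, held 3.56% and 5.15%.

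Cnih2 came almost wholly from Cnih2-201, at 99.7% ± 0.127 in the first and 98.2% ± 1.18 in the second quantification (SD, n = 2). Its other transcript is annotated as a target of nonsense-mediated decay. Cacng4-201 held 89.1% ± 3.14 and 100% in the second quantification (SD, n = 2). Cacng7-201 held 83.7% and 86.6% in the first and 64.2% and 58.5% in the second quantification. The remainder was Cacng7-202, a transcript with a retained intron, with 8.45 and 6.51 TPM in the first and 35.4 and 41.4 TPM in the second.

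In Shisa6, Shisa9, Cnih3 and Cacng3, annotated coding transcripts differ by a stretch whose length is a whole number of codons. These stretches are printed to show what coding sequence sets the transcripts apart, although the transcripts also differ outside them. The stretch is in capitals, with 20 bases of the same transcript on each side in lower case, from GENCODE M21 on the gene's strand.
Shisa6-202, 96 bases at chr11:66375159-66375254, minus strand: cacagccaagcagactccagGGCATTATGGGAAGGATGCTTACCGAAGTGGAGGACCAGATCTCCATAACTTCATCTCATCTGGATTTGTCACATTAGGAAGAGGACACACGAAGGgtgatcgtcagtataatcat
Shisa9-202, 48 bases at chr16:12252785-12252832, plus strand: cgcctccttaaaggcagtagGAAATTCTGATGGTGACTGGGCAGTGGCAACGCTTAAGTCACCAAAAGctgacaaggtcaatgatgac
Cnih3-202, 57 bases at chr1:181409677-181409733, plus strand: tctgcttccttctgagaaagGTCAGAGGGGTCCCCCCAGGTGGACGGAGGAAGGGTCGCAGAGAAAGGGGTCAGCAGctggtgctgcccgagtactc
Cacng3-201, 141 bases at chr7:122762183-122762323, plus strand: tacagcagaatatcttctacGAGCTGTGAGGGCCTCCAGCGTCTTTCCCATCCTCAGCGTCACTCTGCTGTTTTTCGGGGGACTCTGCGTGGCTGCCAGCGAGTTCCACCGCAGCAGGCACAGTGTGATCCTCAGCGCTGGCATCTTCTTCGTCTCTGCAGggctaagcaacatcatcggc
Their lengths of 96, 48, 57 and 141 bases are 32, 16, 19 and 47 codons. The stretches of Shisa6, Cnih3 and Cacng3 are also held whole by Shisa6-203, Cnih3-204 and Cacng3-202. Shares within a pair of transcripts are thus not shares of exon inclusion.

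Shisa6-202, with the 96-base exon, held 57.6% and 56.5% of Shisa6 in the first quantification, and Shisa6-201, which skips it, 29.5% and 30.4%. Of the TPM of these transcripts alone, Shisa6-202 held 66.1% and 65.0% in the first and 65.1% and 66.5% in the second quantification. This was the steadiest split of the 4, between libraries and between quantifications. Shisa6-203, a short non-coding transcript, held 13.0% ± 0.141 in the first and 3.35% ± 3.26 in the second quantification (SD, n = 2).

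Shisa9 showed the opposite balance, with most of the coding RNA assigned to the transcript without its exon. Shisa9-201, which skips the 48 bases, held 48.1% and 48.7% of the gene in the first quantification, and Shisa9-202 held 14.1% and 11.1%. Of these alone, Shisa9-202 held 22.7% and 18.5% in the first and 34.4% and 29.6% in the second quantification. Non-coding transcripts of Shisa9 took 39.0% ± 1.72 in the first and 49.2% ± 1.53 in the second quantification (SD, n = 2), the largest non-coding share among the members.

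Cnih3 differed most between the libraries in the share of its leading transcript. Cnih3-201, without the 57 bases, held 86.2% in replicate 1 and 75.9% in replicate 2, and Cnih3-202 held 9.28% and 20.3%. The assigned counts of Cnih3-202 were 88.5 and 200.9 in the first and 249 and 415 in the second quantification, higher in replicate 2 in both. Of these transcripts alone, Cnih3-202 held 9.71% and 21.1% in the first and 25.6% and 40.0% in the second quantification. With 2 libraries, no test of this difference was made.

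Cacng3-201 held 62.2% and 60.7% in the first and 63.9% and 67.4% in the second quantification. Cacng3-203, which lacks the 141 bases, held 30.6% and 39.3% in the first and 26.2% and 32.4% in the second. Cacng3-202 held 7.26% and 0% in the first and 9.9% and 0.23% in the second. Cacng3-203 has 765 annotated bases and 114 and 139 counts, against 930 and 866 counts for Cacng3-201. These assigned counts do not rest on reads over the printed stretch alone, since the paired transcripts also differ elsewhere: Shisa6-202 has 5747 other bases that Shisa6-201 lacks, and Shisa9-201, Cnih3-201 and Cacng3-201 have 953, 732 and 1871 bases that their partners lack.

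**Figure D4:**
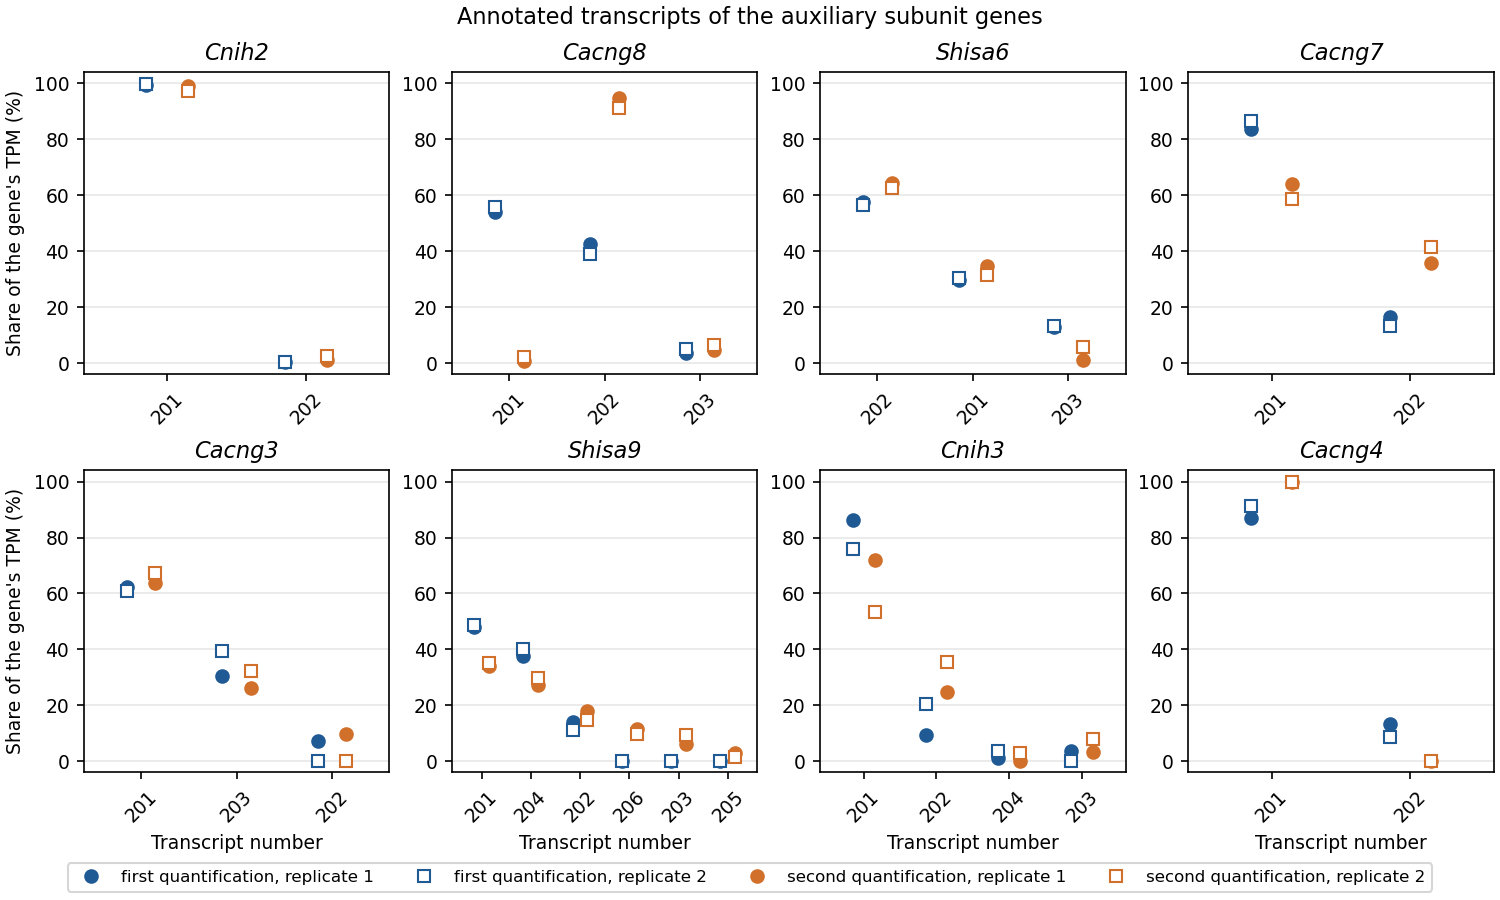
Share of each gene's TPM (%) held by each annotated transcript, for the 8 members with more than 1 transcript, by the first (blue) and second (orange) quantification, with filled circles for replicate 1 and open squares for replicate 2. The libraries lie close together for most transcripts, Cnih3-201 and Cnih3-202 lie farther apart, and Cacng8-201 and Cacng8-202 trade places between the quantifications.

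The genes around the auxiliary subunits were taken from a list of 40. Of these, 36 were detected, against 12679 of 22028 annotated protein-coding genes, and were compared between the libraries. None differed by more than 2-fold, and in 2 of them, named after their values were seen, the libraries were more than 25% apart, against 6.24% of all compared genes. These were Nptx2, which encodes a secreted pentraxin that binds AMPA receptors, at -0.57 (20.9 and 14.1 TPM), and Olfm3, at -0.33 (7.79 and 7.02 TPM). Olfm3 did not pass the mark with total-count scaling (-0.30) or on the TPM scale (-0.15), and neither gene did with spike-in scaling (-0.30 for Nptx2 and -0.07 for Olfm3). With spike-in scaling the related genes past the mark were Grip2 (0.40), Vwc2 (0.39) and Lrrtm4 (0.34), against 28.2% of all compared genes. With TMM scaling replicate 2 was lower for 30 of the 36, against 55.5% of all compared genes, with a median log2 ratio of -0.08, and the median was 0.18 with spike-in scaling.

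Among 15 other auxiliary or interacting proteins, 14 were detected. Olfm1, at 681 ± 31.4 TPM, lay above all 10 members, and Nptxr, at 305 ± 21.9 TPM, overlapped Cnih2 (SD, n = 2). Nptx1, which encodes another secreted pentraxin, followed at 178 ± 14.5 TPM (SD, n = 2). Shisa7, a relative of Shisa6, stood at 68.6 ± 2.38 TPM (SD, n = 2), while Shisa8 was under 1 TPM in both libraries, at 0.290 and 0.410 TPM. All 6 genes listed under receptor assembly in the endoplasmic reticulum were detected. The highest levels among them were those of Abhd12 at 113 ± 10.8 TPM, Frrs1l at 83.4 ± 10.5 TPM and Cpt1c at 51.7 ± 0.962 TPM (SD, n = 2). Frrs1l encodes a protein that binds the pore-forming subunits before the auxiliary subunits do. All 10 scaffold and trafficking genes were detected, led by Nsf at 466 ± 18.7 TPM (SD, n = 2). Dlg4, which encodes the scaffold PSD-95 that binds the TARP tail, followed at 347 ± 11.2 TPM and Epb41l1 at 127.5 ± 0.757 TPM (SD, n = 2). Of 5 relatives of the members that are not AMPA receptor subunits, Cnih1 (31.5 ± 3.43 TPM; SD, n = 2) and Cnih4 (11.3 ± 0.269 TPM; SD, n = 2) were detected, and Cacng1, Cacng6 and Gsg1 were not.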

How the data were processed

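Total RNA-seq of 2 libraries was used. The authors deposited, per the file headers, expected counts, TPM with lower and upper bounds (used as a score for precision and not reported here) and the percent share of each transcript in its gene for a first quantification, and estimated counts and TPM per transcript for a second. Build mm10 and GENCODE M21 come from the labels and the deposited notes; the sources used here name no software or settings. Counts of 26248 numbered entries that name no gene (1.42e-05% of counts), 96 ERCC spike-ins and 1 phiX entry did not enter library sizes. Values of the second quantification were summed per gene here. Log2 ratios came from edgeR 4.0.16 (TMM, prior count 0.5, expected counts rounded), with no test since there was 1 group. Genes were detected at 1 TPM in both libraries and compared at a mean of 100 counts. The scaling code was checked on simulated data. Alternatives were DESeq2 1.42.0 size factors, total count, spike-ins, deposited TPM (pseudocount 0.1), the second quantification, other minimums and leaving out each library. All members are named, with the 3 highest genes of each list of related genes, any over 2-fold and the highest marker; other names were chosen after their values were seen. The members and lists were chosen with earlier results of these data known. Precision is limited by 2 libraries; counting intervals are exact binomial at 95%. Coding identity was taken from pairwise global alignments (Biopython 1.88).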

Additional observations from a re-analysis of the deposited data

How the results depend on the processing

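All 10 members were detected at 0.5, 1 and 5 TPM, above 0 TPM, in the second quantification and in each library alone. The share of all protein-coding genes detected is given at 1 TPM only. No member differed by 2-fold under any scaling, either other count minimum, the deposited TPM or the second quantification. The number with libraries over 25% apart was 0 with TMM, DESeq2 size factors, total count, deposited TPM and both other minimums, 1 in the second quantification (Shisa6, -0.33) and 3 with spike-in scaling. The median log2 ratio was -0.09 with TMM, between -0.11 and -0.06 with the others, and 0.17 with spike-ins, which moved the ratio of all 10 members outside its counting interval. In the second quantification 5 of 10 members kept their rank, and with either library alone 8 did. The number led by the same transcript in both quantifications was 7 with both libraries and with either alone. Rescaling to protein-coding genes and the second quantification moved all 10 TPM values by more than their SD. The causes were not tested. No paired analysis was possible because the libraries form a single group. Low counts limit the rarer transcripts: Cnih3-203 had 8.79 and 0 counts in the first and 5.51 and 15.5 in the second quantification.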
